A study of Mus musculus with 28 samples.

Results

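The genes described here are 34 established transcriptional targets of p53 that lie outside the Mdm2 and Cdkn1a feedback genes, the BCL2 family and the death receptors. They were taken by symbol from the known p53 targets. The rule uses no measured value, but the list was drawn up with earlier results of these data known. All 34 were matched to 1 identifier each in the bulk table of 44674 genes and in the single-cell list of 31053 genes. The study exposed young female mice of about a week of age to 0.5 Gy of total body gamma radiation from a Cesium-137 source (IR) or to sham treatment (nonIR), and collected ovaries 6 h later. Wildtype (WT) females were C57BL/6J. Chek2-/- females carried the Chek2tm1b(EUCOMM)Hmgu allele, which is not restricted to a cell type. Bulk RNA-seq covered 24 libraries in 4 groups of 6 (WT nonIR, WT IR, Chek2-/- nonIR and Chek2-/- IR), each from the paired ovaries of a female. Single-cell RNA-seq covered 4 libraries, 1 for each of the same conditions, each from ovaries pooled from several females. No source says whether the bulk libraries of a group came from different litters or days, so the p-values measure the spread between these samples.

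DNA double-strand breaks activate ATM, which activates CHEK2, and CHEK2 phosphorylates p53 and, in oocytes of the ovarian reserve, its relative TAp63. Both factors bind the same kind of DNA sequence and switch on a broad programme. Besides cell cycle arrest and BCL2-type death, that programme includes DNA repair enzymes, regulators of mitochondria and autophagy, metabolic enzymes, signalling inhibitors, secreted factors and a long noncoding RNA, and these are the branches that the 34 genes represent.

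The p53 half-site is the sequence unit to which a pair of p53 subunits binds, and it was searched in the promoters, taken as 250 bases before to 50 bases after each RefSeq start (GRCm38.p6). The consensus, 10 bases long, has 3 purines, C, 2 bases that are A or T, G and 3 pyrimidines. It is its own reverse complement, so that both strands are read at once. Of 32851 promoters, 8.36% held a half-site, and 9.55% of 27025 genes had one in any promoter. A promoter was on hand for 29 of the 34 genes (44 promoters), and 7 of the 29 held a half-site. These were 4 of the 10 genes higher in irradiated WT ovaries (Inka2, Ei24, Rps27l and Polk) and 3 of the 19 others (Aen, Gadd45a and Pml). No member's promoter held 2 half-sites at most 13 bases apart, the arrangement of a full site, and 24 of all promoters did (0.0731%). A match in these letters is a description and not a measured binding site, and p53 also binds outside this window, as in introns. The promoters of the 4 genes that rose, and of Aen, whose behaviour differed between cell classes, are shown with the half-sites in capitals.
Inka2, chr3:105705208-105705507, plus strand: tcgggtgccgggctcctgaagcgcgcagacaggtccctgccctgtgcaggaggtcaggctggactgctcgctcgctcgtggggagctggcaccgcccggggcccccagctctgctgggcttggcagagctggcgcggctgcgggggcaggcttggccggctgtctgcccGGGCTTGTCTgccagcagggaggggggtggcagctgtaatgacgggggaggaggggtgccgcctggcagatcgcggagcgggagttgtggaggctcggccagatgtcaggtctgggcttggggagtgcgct
Ei24, chr9:36797285-36797584, minus strand: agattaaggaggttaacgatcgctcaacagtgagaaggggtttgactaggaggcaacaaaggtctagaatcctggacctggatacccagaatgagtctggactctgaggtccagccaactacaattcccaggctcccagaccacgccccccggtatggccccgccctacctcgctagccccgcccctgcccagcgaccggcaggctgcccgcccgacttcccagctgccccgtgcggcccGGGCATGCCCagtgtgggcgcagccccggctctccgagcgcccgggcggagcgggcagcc
Rps27l, chr9:66946163-66946462, plus strand: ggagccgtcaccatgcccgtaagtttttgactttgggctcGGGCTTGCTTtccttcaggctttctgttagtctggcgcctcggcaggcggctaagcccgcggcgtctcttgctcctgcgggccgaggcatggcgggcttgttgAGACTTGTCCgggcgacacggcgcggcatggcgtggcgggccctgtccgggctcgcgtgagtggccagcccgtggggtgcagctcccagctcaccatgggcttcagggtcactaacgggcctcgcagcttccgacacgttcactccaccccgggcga
Polk, chr13:96519138-96519437, minus strand: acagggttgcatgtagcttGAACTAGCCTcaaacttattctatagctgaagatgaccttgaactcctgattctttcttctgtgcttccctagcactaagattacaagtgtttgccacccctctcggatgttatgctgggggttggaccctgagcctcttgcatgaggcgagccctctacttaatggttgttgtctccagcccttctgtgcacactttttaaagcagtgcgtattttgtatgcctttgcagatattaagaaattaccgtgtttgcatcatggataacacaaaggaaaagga
Aen, chr7:78895677-78895976, plus strand: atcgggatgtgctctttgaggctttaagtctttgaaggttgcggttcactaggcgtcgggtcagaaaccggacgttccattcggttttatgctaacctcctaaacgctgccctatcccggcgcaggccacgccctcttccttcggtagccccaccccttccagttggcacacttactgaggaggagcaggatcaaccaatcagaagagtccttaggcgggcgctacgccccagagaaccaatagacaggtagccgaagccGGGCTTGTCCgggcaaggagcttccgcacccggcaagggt

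In the Inka2 promoter the half-site begins at -81 from the start (GGGCTTGTCT), and in Ei24 at -10 (GGGCATGCCC). Rps27l has one at -210 (GGGCTTGCTT) and another at -107 (AGACTTGTCC), too far apart for a full site. Polk has one at -231 (GAACTAGCCT). The Aen half-site (GGGCTTGTCC) begins at 11 after this start.

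The bulk libraries held 17825167 to 32605747 estimated counts, and 26790 genes with at least 10 counts over all libraries were tested, all 34 members among them. Levels are given as CPM, the share of a library's counts that fell on a gene, on the usual CPM scale with library sizes adjusted by TMM factors. Chek2 had 19.8 to 24.6 CPM in WT nonIR libraries and 2.88 to 4.44 CPM in Chek2-/- nonIR libraries (log2 change -2.58, SE 0.10, adjusted p = 7.45e-15 edgeR quasi-likelihood F test, p-values adjusted after Benjamini and Hochberg). Nnt, which carries a deletion in C57BL/6J, was higher in Chek2-/- nonIR (58.5 to 78.3 CPM) than in WT nonIR libraries (26.6 to 36.4 CPM; log2 change 1.04, adjusted p = 1.05e-07), so substrain and genotype cannot be told apart. Both Chek2-/- libraries numbered 6 had oocyte marker sums of 1010 and 1147 CPM, below the other libraries of those groups. Their epithelial marker sums of 1019 and 887.6 CPM lay above the others. A further 3 libraries were high in blood cell genes (erythroid or neutrophil sums of 1512 to 10450 CPM). In WT, 2 of 9 oocyte markers were lower after IR (median log2 change of the 9, -0.25). The 6 neutrophil markers had median log2 changes of 6.89 in WT (1 called, 6 at an unadjusted p under 0.05) and 6.82 in Chek2-/- (0 called, 5 unadjusted), and their sums were 1512 and 1582 CPM in 1 library of each irradiated group and at most 12.1 CPM in every other library. Of the 7 oviduct and uterine epithelium markers, at an unadjusted p under 0.05, 2 were higher in WT and 4 lower in Chek2-/- after IR, with none called. Without the 3 libraries high in blood cell genes, 12 members were called higher in WT and 0 in Chek2-/- (356 and 3 of all 26362 genes). The part of the other markers in the members' values was not tested. In bulk ovaries, fewer cells of a type and less RNA per cell cannot be told apart.

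Irradiation of WT ovaries raised 12 of the 34 genes and lowered none at an adjusted p of at most 0.05, beside 1.53% of all tested genes called higher and 0.885% called lower. At an unadjusted p under 0.05 the numbers were 15 higher and 0 lower, against 5.75% and 5.67% of all genes. The median log2 change of the 34 was 0.25 against -0.0041 for all genes, and 26 of the 34 were above 0 (48.7% of all genes). In 12 genes every WT IR library lay above every WT nonIR library (1.68% of all genes), and in none did every one lie below (0.885%). Of the 12 called, 5 rose at least 2-fold (0.859%): Trp53cor1, Ak1, Inka2, Pidd1 and Phlda3. Leaving out any 1 of the WT libraries left 12 or 13 of the 34 called, beside 361 to 431 of all genes called higher.

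**Figure D1:**
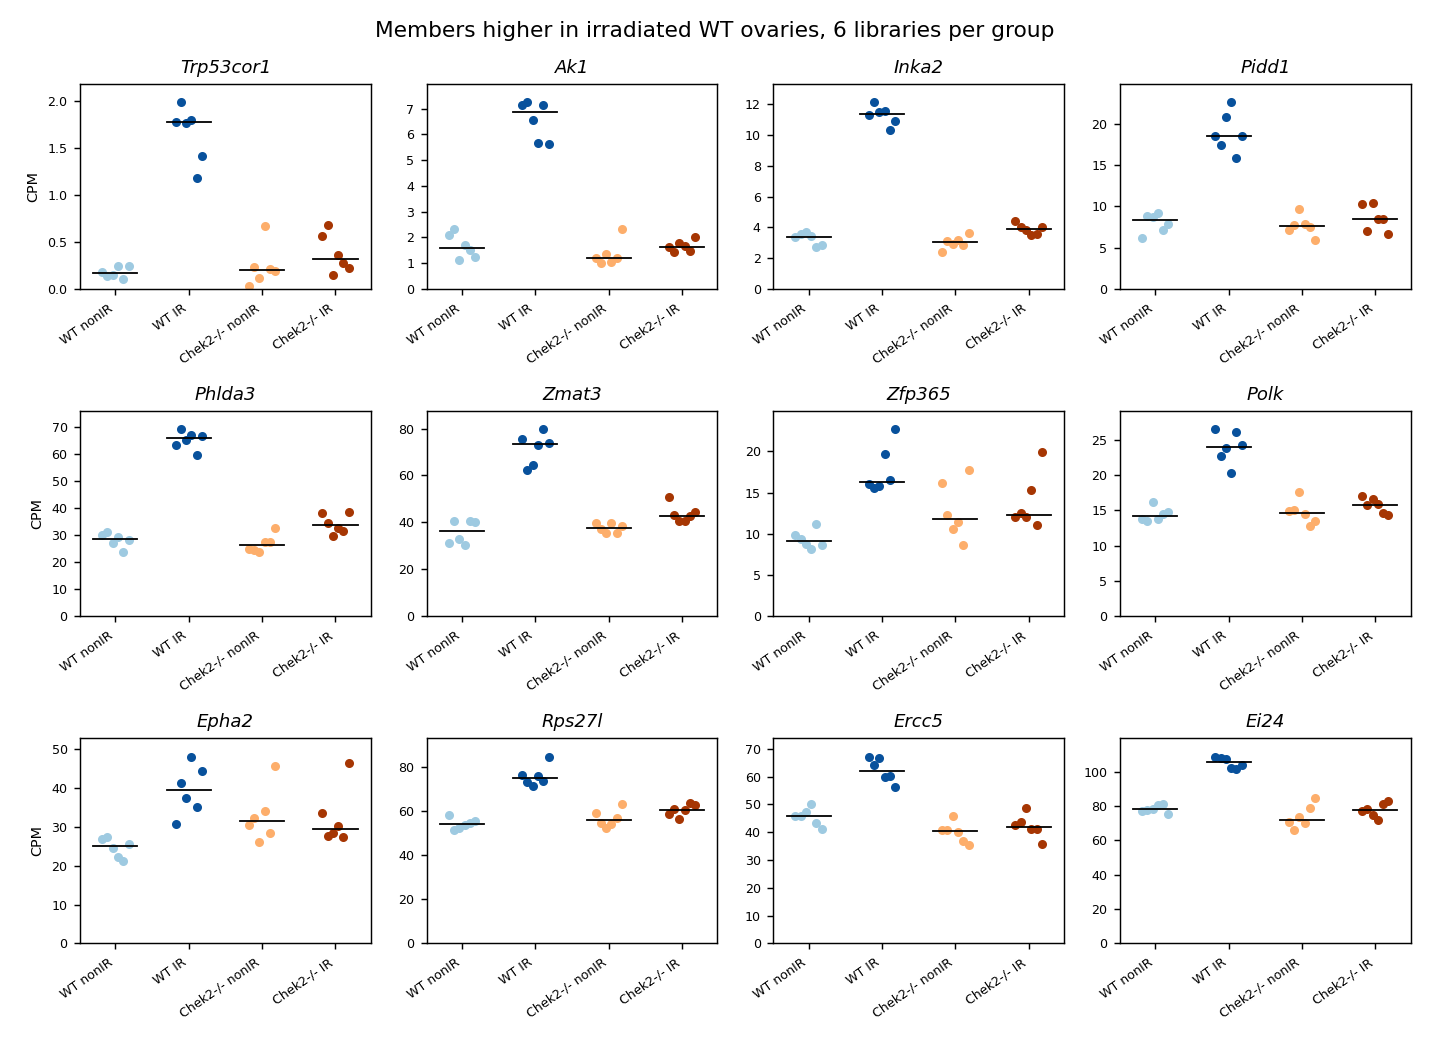
CPM (vertical axis, from 0) of the 12 genes higher in irradiated WT ovaries, with a point for each of the 6 libraries of a group and a line at the group median. In every panel the 6 WT IR points lie above the 6 WT nonIR points, while the Chek2-/- IR and nonIR points overlap except in Zmat3.

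Among the 10 genes of cell death, mitochondria and autophagy, 4 rose and 6 did not pass the test, with a median log2 change of 0.20. Phlda3 encodes a pleckstrin-homology protein that holds AKT from the membrane. Its level ran from 23.7 through a median of 28.6 to 31.2 CPM in WT nonIR libraries and from 59.6 through 65.7 to 68.9 CPM in WT IR libraries. The WT groups were far apart, and Phlda3 rose 2.31-fold (log2 1.21, SE 0.08, adjusted p = 7.82e-11). Its levels in Chek2-/- were 23.8, 26.1 and 32.5 CPM without and 29.7, 33.6 and 38.3 CPM with IR (lowest, median and highest), and these groups overlapped. Pidd1, the death-domain scaffold of the caspase-2 complex, ran from 6.13 through 8.30 to 9.19 CPM in WT nonIR and from 15.8 through 18.5 to 22.6 CPM in WT IR libraries. It rose 2.37-fold (log2 1.25, SE 0.13, adjusted p = 3.75e-07). In Chek2-/- it ran from 5.92 through 7.62 to 9.72 CPM without IR and from 6.71 through 8.44 to 10.4 CPM with IR, ranges that lie almost on top of each other.

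Zmat3 encodes a zinc-finger RNA-binding protein that regulates splicing. Its WT levels were 30.2, 36.4 and 40.5 CPM without and 62.2, 73.5 and 79.6 CPM with IR, a 1.99-fold rise (log2 0.995, SE 0.08, adjusted p = 5.04e-09). In Chek2-/- it ran from 35.4 through 37.7 to 39.9 CPM without IR and from 40.5 through 42.9 to 51.0 CPM with IR. These Chek2-/- groups did not overlap either, as in 0.0896% of all genes, but the change did not pass the test (log2 0.21, SE 0.08, adjusted p = 0.881). Ei24, an endoplasmic reticulum protein of autophagy, had 75.2, 78.3 and 81.1 CPM in WT nonIR and 101.7, 106.0 and 108.9 CPM in WT IR libraries. The step was small and tight (1.34-fold, log2 0.43, SE 0.05, adjusted p = 2.15e-06). In Chek2-/- its levels were 66.2, 72.1 and 85.1 CPM without and 72.2, 77.7 and 83.3 CPM with IR.

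The other 6 of this branch gave adjusted p-values of 0.474 to 0.977 in WT. Aen, an apoptosis-enhancing nuclease, had 124.6, 138.5 and 146.6 CPM without and 127.5, 141.3 and 152.2 CPM with IR, and its log2 change of 0.02 had a 95% interval of -0.10 to 0.14. Triap1, an apoptosis inhibitor in mitochondria, and Cdip1, a mediator of death signalling, gave log2 changes of -0.02 (SE 0.06) and -0.01 (SE 0.05). Jmy, an actin nucleator and p53 cofactor, gave -0.05 (SE 0.06). Dram1, an autophagy regulator, gave 0.39 (SE 0.20). Spata18, which acts in mitochondrial quality control, lay between 0 and 0.372 CPM in all 24 libraries, too low for a change to be read at this depth.

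Among the 6 genes of DNA repair and nucleotide supply, Polk and Ercc5 rose, with a median log2 change of 0.13 over the 6. Polk, the translesion DNA polymerase kappa, ran from 13.5 through 14.1 to 16.2 CPM in WT nonIR and from 20.3 through 24.01 to 26.5 CPM in WT IR libraries. It rose 1.66-fold (log2 0.73, SE 0.08, adjusted p = 3.7e-07). The Chek2-/- libraries had 12.8, 14.7 and 17.6 CPM without and 14.4, 15.8 and 17.0 CPM with IR. Ercc5, the 3′ endonuclease of nucleotide excision repair, rose 1.37-fold, from 41.1, 45.9 and 49.97 to 56.4, 62.2 and 67.2 CPM (log2 0.45, SE 0.07, adjusted p = 0.00011). Its Chek2-/- levels ran from 35.5 through 40.4 to 45.8 CPM without IR and from 35.6 through 42.0 to 48.9 CPM with IR.

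Ddb2 and Xpc, which recognise damage at the start of nucleotide excision repair, gave WT log2 changes of -0.05 (SE 0.07) and 0.03 (SE 0.06). Rrm2b, the p53-inducible subunit of ribonucleotide reductase, gave 0.01 (SE 0.09), and the stress protein gene Gadd45a 0.24 (SE 0.16). None of these 4 passed the test, and their WT groups overlapped. Of 21 other nucleotide excision repair genes, none was called in WT in either direction, and their log2 changes ran from -0.18 to 0.08, with a median of -0.05.

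Among the 4 metabolic genes Ak1 rose and Fdxr, Tigar and Steap3 did not pass the test, with a median log2 change of 0.10. Ak1, the cytosolic adenylate kinase, went from 1.12, 1.61 and 2.33 CPM in WT nonIR to 5.64, 6.86 and 7.25 CPM in WT IR libraries. The lowest irradiated library was above the highest sham library by more than the whole range of the sham group, and the rise was 3.93-fold (log2 1.97, SE 0.19, adjusted p = 1.51e-07). The Chek2-/- libraries had 1.01, 1.21 and 2.34 CPM without and 1.44, 1.65 and 2.01 CPM with IR. These groups overlapped through sham library 6 alone, as the other sham libraries had 1.01 to 1.38 CPM. Fdxr, the mitochondrial ferredoxin reductase, gave a WT log2 change of 0.13 (SE 0.08). Tigar, which lowers glycolytic flux, gave -0.17 (SE 0.11), and the metalloreductase Steap3 0.07 (SE 0.11).

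Among the 5 genes of kinases and signalling, Inka2 rose and had the smallest adjusted p of all members. Inka2 encodes an inhibitor of the p21-activated kinase PAK4. It went from 2.70, 3.40 and 3.71 CPM to 10.3, 11.4 and 12.1 CPM with IR in WT, a 3.45-fold rise (log2 1.79, SE 0.10, adjusted p = 7.38e-12). In Chek2-/- it had 2.43, 3.05 and 3.61 CPM without and 3.53, 3.93 and 4.39 CPM with IR, and 1 sham library (3.61 CPM, library 6) reached above the 2 lowest irradiated ones. The polo-like kinases Plk2 and Plk3 gave WT log2 changes of 0.26 (SE 0.08, adjusted p = 0.123) and 0.04 (SE 0.11). The diacylglycerol kinase gene Dgka gave 0.15 (SE 0.10), and Prkab1, a regulatory subunit of AMP-activated kinase, -0.0028 (SE 0.03).

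Among the 5 genes of secreted and surface proteins only Epha2 passed the test, although the median log2 change was 0.58. Epha2, an ephrin receptor tyrosine kinase, ran from 21.2 through 25.1 to 27.5 CPM in WT nonIR and from 30.7 through 39.5 to 48.1 CPM in WT IR libraries. It rose 1.60-fold (log2 0.68, SE 0.14, adjusted p = 0.00361). Chek2-/- ovaries had 26.2, 31.4 and 45.8 CPM without and 27.4, 29.4 and 46.4 CPM with IR, and the highest of both belonged to library 6. Gdf15, a stress-induced cytokine of the TGF-beta family, had 0.984, 1.43 and 2.51 CPM in WT nonIR and 1.93, 2.21 and 2.41 CPM in WT IR libraries (log2 0.50, SE 0.18, adjusted p = 0.193). The cytokine gene Lif (log2 0.58, SE 0.26) and the costimulatory ligand gene Cd80 (0.63, SE 0.36) had wide errors at 0.145 to 7.61 CPM in WT. Ninj1, a protein of plasma membrane rupture, gave -0.09 (SE 0.07).

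Among the 4 nuclear, RNA and ribosomal genes 3 rose, with a median log2 change of 0.70. Trp53cor1, the long noncoding RNA lincRNA-p21 that neighbours Cdkn1a, had the widest fold of the members. Its levels were 0.103, 0.166 and 0.248 CPM in WT nonIR and 1.17, 1.77 and 1.98 CPM in WT IR libraries, an 8.94-fold rise from a few reads per library (log2 3.16, SE 0.42, adjusted p = 1.93e-05). The strand setting of the counting is not given, so reads of genes that overlap it on the other strand could not be separated from it. In Chek2-/- it had 0.0369, 0.202 and 0.665 CPM without and 0.149, 0.321 and 0.683 CPM with IR. Zfp365, which protects genome stability, ran from 8.19 through 9.10 to 11.1 CPM in WT nonIR and from 15.6 through 16.3 to 22.7 CPM in WT IR libraries (1.90-fold, log2 0.93, SE 0.16, adjusted p = 0.000637). Without Chek2 it spread over 8.63, 11.8 and 17.75 CPM without and 11.1, 12.3 and 19.9 CPM with IR.

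Rps27l, a ribosomal protein paralog of Rps27, went from 51.8, 54.2 and 58.3 CPM in WT nonIR to 71.3, 75.0 and 84.9 CPM in WT IR libraries. The rise was 1.398-fold (log2 0.48, SE 0.05, adjusted p = 2.7e-07). Chek2-/- ovaries had 52.4, 56.0 and 63.2 CPM without and 56.5, 60.9 and 63.8 CPM with IR. The split of reads between Rps27l and Rps27 by the quantification is uncertain. Rps27 itself gave a WT log2 change of -0.53 (SE 0.42, adjusted p = 0.745). Pml, the scaffold of nuclear bodies, gave 0.06 (SE 0.08) in WT.

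In Chek2-/- ovaries irradiation raised and lowered none of the 34 genes by the edgeR test (0.0112% of all genes were called higher and 0 lower). DESeq2 called 1 higher (8 of all 26790 genes) and limma none (3 genes). At an unadjusted p under 0.05 in the edgeR test there were 4 higher (2.12% of all genes) and 0 lower (2.28%). The 4 were Phlda3 (log2 0.35, SE 0.08, adjusted p = 0.414), Inka2 (0.36, SE 0.10, adjusted p = 0.578), Zmat3 (0.21, SE 0.08) and Aen (0.15, SE 0.06). The median log2 change of the 34 was 0.06 against 0 for all genes, and 26 of the 34 were above 0, the same number as in WT (49.9% of all genes in Chek2-/-). Without the Chek2-/- nonIR library 6, 1 of the 34 was called higher, beside 4 of all 26617 genes.

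**Figure D2:**
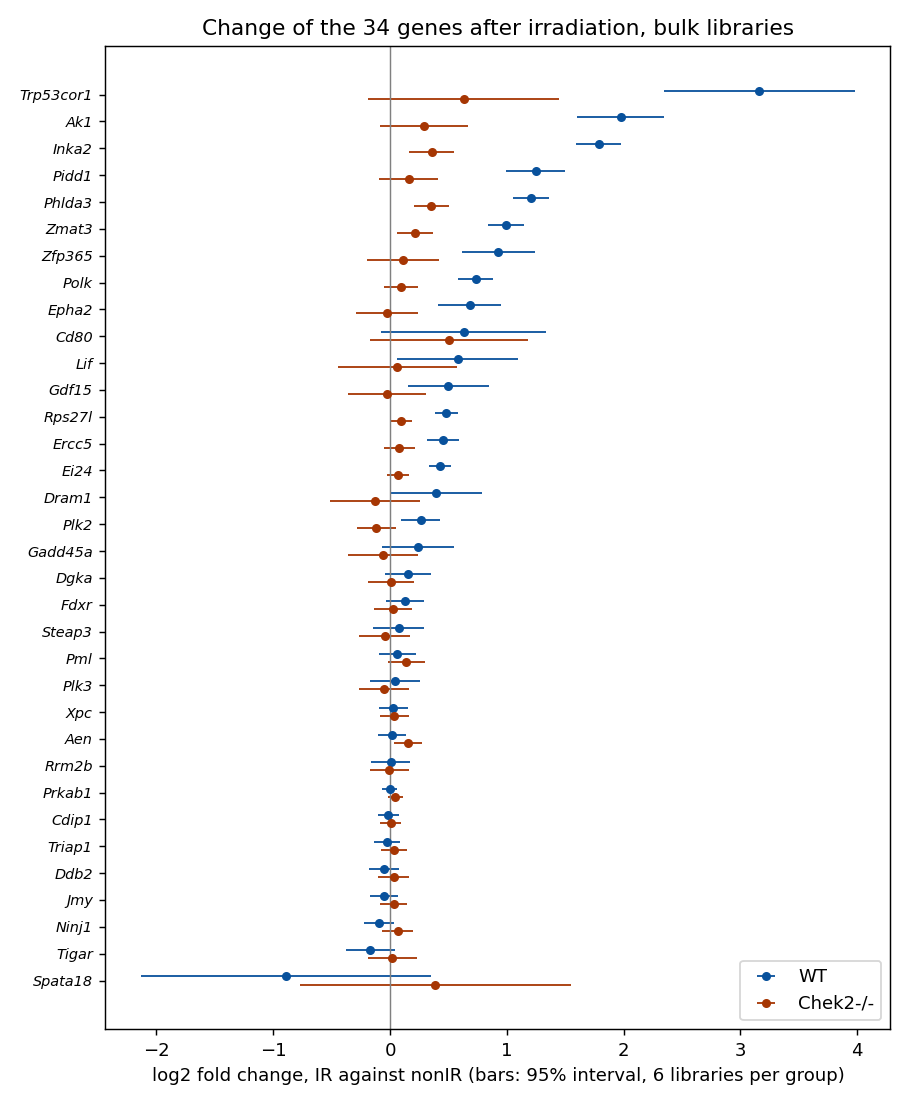
Log2 fold change of IR against nonIR (horizontal axis) of the 34 genes, in order of the WT change, with 95% intervals from 6 libraries per group. The WT points run from 3.16 for Trp53cor1 to -0.89 for Spata18, and the Chek2-/- points lie between -0.13 and 0.63.

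The difference between the responses of the genotypes was tested by the interaction of treatment and genotype. The WT response exceeded the Chek2-/- response in 9 of the 34 genes and fell short of it in none, beside 0.694% and 0.34% of all genes. The log2 differences were 1.43 for Inka2 (SE 0.14, adjusted p = 6.46e-07), 0.85 for Phlda3 (SE 0.11, adjusted p = 3.69e-05), 0.78 for Zmat3 (SE 0.11, adjusted p = 0.000167) and 1.69 for Ak1 (SE 0.27, adjusted p = 0.000726). Pidd1 differed by 1.09 (SE 0.18, adjusted p = 0.00105), Polk by 0.64 (SE 0.11, adjusted p = 0.00106), Rps27l by 0.39 (SE 0.07, adjusted p = 0.00192) and Ei24 by 0.36 (SE 0.07, adjusted p = 0.00558). Trp53cor1 differed by 2.53 (SE 0.60, adjusted p = 0.0321). This call was lost when 1 of 8 libraries was left out (WT nonIR 1, 2, 3 or 5, WT IR 1 or 2, Chek2-/- nonIR 4 or Chek2-/- IR 5), with an adjusted p of up to 0.0957 and a log2 difference of 1.93 without Chek2-/- nonIR 4. The other 3 genes that rose in WT did not pass this test: Ercc5 differed by 0.38 (adjusted p = 0.0598), Epha2 by 0.71 (adjusted p = 0.0838) and Zfp365 by 0.82 (adjusted p = 0.0879). These 3 calls turn on the fit: DESeq2, a block for the replicate number and leaving out both Chek2-/- libraries numbered 6 each called all 3 different (adjusted p of 0.00106 to 0.0499), and the block also called Plk2 (log2 0.375, adjusted p = 0.0331). Leaving out Chek2-/- IR 6 alone called all 4. In the same interaction 1 of 9 oocyte markers was lower (median log2 difference -0.28) and 1 of 7 markers of oviduct and uterine epithelium was higher (median 0.99), and their part in the members' values was not tested. The WT, Chek2-/- and interaction comparisons share libraries and are not independent of each other.

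Without irradiation, 1 gene was higher and 2 were lower in Chek2-/- than in WT ovaries, beside 3.12% and 2.22% of all genes. In the same comparison 2 of 7 fibroblast markers and 1 of 6 pericyte markers (median log2 change of the 6, 0.09) were called lower in Chek2-/-. Called higher were 1 of 8 granulosa markers (median log2 change of the 8, -0.35) and 1 of 7 oviduct and uterine epithelium markers. At an unadjusted p under 0.05, 4 granulosa markers were lower and 1 higher, and 3 of 9 oocyte markers were lower and 1 higher. Of 6 smooth muscle markers, 2 were lower at that limit (median -0.55) and none was called. The 6 erythroid markers had a median log2 change of 2.32, with 6 of 6 at an unadjusted p under 0.05 and none called, and the part of these markers in the members' values was not tested. Gdf15 had 0.984, 1.43 and 2.51 CPM in WT and 1.97, 2.40 and 3.57 CPM in Chek2-/- libraries, and these overlapped (log2 0.69, SE 0.18, adjusted p = 0.0226). Prkab1 had 52.5, 55.1 and 57.7 CPM in WT and 48.3, 49.5 and 52.1 CPM in Chek2-/- libraries, which did not overlap, with all of Chek2-/- below as in 1.53% of all genes (log2 -0.14, SE 0.03, adjusted p = 0.0143). Pml had 44.0, 48.4 and 55.6 CPM in WT and 37.5, 41.0 and 42.8 CPM in Chek2-/- libraries, which did not overlap either (log2 -0.28, SE 0.08, adjusted p = 0.0426). The Gdf15 call was lost without WT nonIR 3 or 4 or Chek2-/- nonIR 2 (adjusted p up to 0.0603), and the Pml call without any of 9 of the 12 libraries (WT nonIR 2 to 5 and Chek2-/- nonIR 1 to 4 and 6, adjusted p up to 0.118). With Chek2-/- nonIR 5 left out, 3 members were higher and 4 lower, beside 1057 and 729 of all 26660 genes. DESeq2 and the block for the replicate number each called 5 higher and 4 lower, but the block ended the Pml call (adjusted p = 0.0559). Calls over all 26790 genes rose as well. They were 836 higher and 594 lower by the edgeR test, 1349 and 1158 by DESeq2 and 1092 and 933 with the block. A fit on only the groups compared ended the Gdf15 (adjusted p = 0.104) and Prkab1 (adjusted p = 0.0639) calls.

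Of 30 other genes of the p53 pathway, which include the Mdm2, Cdkn1a, BCL2-type and receptor genes, 18 rose in WT ovaries and none fell (1.53% and 0.885% of all genes). Their median log2 change was 0.58. The smallest adjusted p-values among them were those of Ccng1 (log2 2.03), Mdm2 (1.33), Eda2r (1.78), Bbc3 (1.89) and Pmaip1 (2.68). In Chek2-/- 2 of the 30 rose, beside 3 of all 26790 genes (0.0112%). The WT response was the larger in 16 of the 30 by the interaction test (0.694% of all genes). Of 27 paralogs of the members, Inka1 alone rose in WT (log2 1.07, SE 0.15, adjusted p = 3.28e-05), and its response also differed between the genotypes (1.06, adjusted p = 0.00669).

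In the single-cell data 9277, 9779, 8697 and 8771 cells were used from the WT nonIR, WT IR, Chek2-/- nonIR and Chek2-/- IR libraries, with median UMI counts (unique molecular identifiers, which count captured RNA molecules) of 13908, 14476, 15527 and 17135. Clusters were named only from markers, and the members and other p53 pathway genes took no part in the clustering. Oocyte-like cells numbered 196, 171, 75 and 140 in the same order, granulosa-like cells 2990, 3575, 3218 and 3477, and fibroblast-like cells (ovarian stroma) 5037, 4874, 4457 and 4296. In the oocyte-like cluster all 9 oocyte markers were met, in granulosa-like clusters 7 or 8 of 8 and in fibroblast-like clusters 7 of 7. With 1 library per condition there is no test, and levels are CPM of the summed UMIs of a class in a library (unscaled), and each ratio of these levels carries an exact 95% interval that covers counting error only. Libraries shared 30 to 73 barcodes per pair, and the counts of members given below were also taken without the cells that carry them. Of the cells used, 94, 86, 69 and 67 carried such a barcode, and among oocyte-like cells 12 of 196, 14 of 171, 6 of 75 and 12 of 140. These few oocyte-like cells held 12.6, 41.2, 19.5 and 21.7% of the UMIs of their class, while those of the granulosa- and fibroblast-like cells held at most 1.04%.

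**Figure D3:**
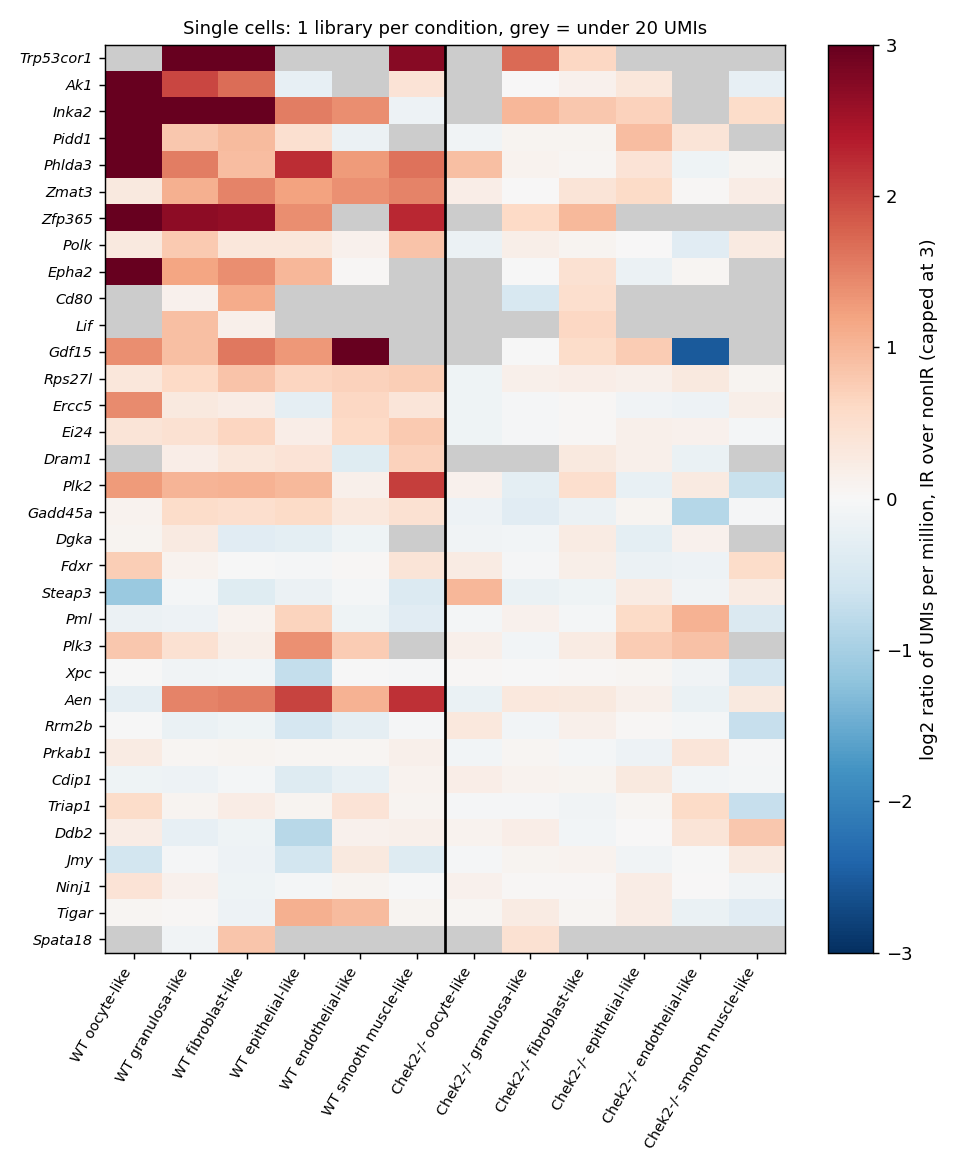
Log2 ratio of UMI levels in CPM, IR over nonIR (colour, capped at 3), for the 34 genes (rows, in order of the bulk WT change) in 6 cell classes of each genotype (columns), with genes under 20 UMIs over both libraries in grey. Among the WT columns on the left, the oocyte-like cells lie above the cap for Epha2, Zfp365, Pidd1, Phlda3, Ak1 and Inka2. The granulosa- and fibroblast-like cells lie above it for Trp53cor1 and Inka2. Members at least 1.5-fold higher in Chek2-/- were 6 of 29 in epithelial-like cells (535 of 12113 genes). They were 2 of 27 in endothelial-like (502 of 10944) and 1 of 23 in smooth muscle-like cells (445 of 10823). Members at least 1.5-fold lower were 0 (385 genes), 2 (483) and 3 (538) in the same order.

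In WT oocyte-like cells, 11 of the 29 members with at least 20 UMIs were at least 1.5-fold higher after IR and 1 at least 1.5-fold lower, beside 15.6% and 14.9% of all genes in these cells. The 20 UMIs were summed over both libraries, and Inka2, Ak1 and Zfp365 passed this limit through the IR library alone. Their place among the 29 thus came from the library in which they were high. The shares of all genes used the same limit. The median log2 ratio of the members was 0.34, against 0.0004 over all genes. Epha2 went from 28 to 455 UMIs, which is from 0.968 to 34.01 CPM, a ratio of 35.1 (23.99 to 53.5). Zfp365 went from 12 to 236 UMIs, a ratio of 42.5 (23.9 to 83.5), and Pidd1 from 52 to 334 UMIs, a ratio of 13.9 (10.4 to 19.0). These 3 genes were at 0.280, 0.0560 and 1.57 CPM in irradiated Chek2-/- oocyte-like cells.

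Phlda3 went from 261 to 1450 UMIs in WT oocyte-like cells (ratio 12.0, 10.5 to 13.8), and Ak1 from 7 to 38 (11.7, 5.18 to 31.2). Inka2 went from 1 to 39 UMIs, a ratio of 84.3 whose interval of 14.3 to 3415 shows how little the single UMI fixes it. Ercc5 rose from 491 to 611 UMIs in fewer cells and fewer total UMIs, a ratio of 2.69 (2.39 to 3.04). Ratios of 2.61 for Gdf15, 2.42 for Plk2, 1.75 for Plk3 and 1.68 for Fdxr complete the 11. Steap3 was lower, with a ratio of 0.460 (0.350 to 0.597), and Aen had 132.9 CPM without and 110.4 with IR, a ratio of 0.831. The Aen ratio was also below 1 in Chek2-/- oocyte-like cells. Without the cells whose barcode another library shared, it was 0.874 (0.818 to 0.934) there and 0.899 (0.834 to 0.969) in WT.

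The oocyte-like class was 1 cluster that did not separate primordial from growing oocytes. A change in the mix of these stages and a change of expression within them cannot be told apart in its ratios. The WT IR oocyte-like cells had a median of 14183 UMIs, against 181498 in WT nonIR, and 120 of the 171 had fewer than 50000 UMIs. Cells of at least 50000 UMIs numbered 131, 51, 62 and 91 in the 4 libraries. In these cells alone the WT ratios were 46.2 for Zfp365, 35.7 for Epha2, 14.2 for Pidd1, 11.7 for Phlda3, 2.69 for Ercc5 and 0.398 for Steap3. There Triap1 (1.51, 1.41 to 1.62) also came past the upper 1.5-fold limit and Jmy (0.606, 0.513 to 0.713) past the lower one. Without the cells whose barcode another library shared, the WT ratios of Zfp365, Epha2, Pidd1, Phlda3, Ercc5 and Steap3 were 47.7, 45.0, 20.01, 15.0, 3.43 and 0.571, and the only Inka2 UMI of WT nonIR was gone (26 against 0). Ak1, with 4 and 33 UMIs left, went from 11.7 to 26.5. Some ratios near 1 fell, from 1.04 to 0.708 for Tigar, from 0.998 to 0.732 for Rrm2b and from 1.185 to 0.883 for Prkab1. In those cells 12 members were at least 1.5-fold higher, with Triap1 (1.54) added. The share of all genes past this limit in those cells is not given here, so the 12 has no background beside it. In Chek2-/- oocyte-like cells 2 of 24 members were at least 1.5-fold higher, a share near the 9.55% of all genes, and none lower (2.7%). Phlda3 went from 48 to 134 UMIs (ratio 1.86, 1.33 to 2.64), and Steap3 from 43 to 130 (2.01, 1.41 to 2.91), the reverse of its direction in WT. The granulosa markers in the oocyte-like cells went the same ways, from 425.1 to 172.2 CPM in WT and from 174.7 to 257.6 CPM in Chek2-/- with IR. Steap3 stood at 56.4 CPM in WT nonIR granulosa-like cells against 11.4 CPM in oocyte-like cells, and the part of granulosa RNA in its ratios was not tested.

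In WT granulosa-like cells 14 of 34 members were at least 1.5-fold higher and none lower, beside 5.78% and 3.71% of all genes, with a median log2 ratio of 0.37 against -0.02 for all genes. Trp53cor1 went from 9 to 321 UMIs (ratio 33.4, 17.4 to 73.7), so it passed the UMI limit through the IR library alone, and Inka2 from 24 to 488 (19.0, 12.7 to 30.01). Zfp365 had a ratio of 6.42, Ak1 of 4.01 and Phlda3 of 2.90. Aen went from 1453 to 4340 UMIs, a ratio of 2.80 (2.64 to 2.97). Epha2 (2.27), Zmat3 (2.08), Plk2 (2.01), Gdf15 (1.86), Pidd1 (1.76), Polk (1.73) and Rps27l (1.503) followed, and Lif had 1.87 from 10 and 20 UMIs (0.837 to 4.48). Lif also passed the UMI limit through the IR library alone. In Chek2-/- granulosa-like cells 3 of 32 were at least 1.5-fold higher (3.04% of all genes): Trp53cor1 with 7 and 27 UMIs (3.26, 1.39 to 8.87), Inka2 (2.00) and Zfp365 (1.502, 0.984 to 2.33), and none was lower (4.41%). Without the shared barcodes Zfp365 fell below that limit (1.475) and Spata18 passed it (1.517, from 10 and 18 UMIs). In these Chek2-/- cells Trp53cor1 passed the UMI limit through the IR library alone.

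In WT fibroblast-like cells 15 of 34 members were at least 1.5-fold higher and none lower, beside 3.57% and 4.6% of all genes, with a median log2 ratio of 0.34 against 0.0027. Inka2 went from 4 to 66 UMIs (ratio 16.5, 6.16 to 62.5) and Trp53cor1 from 16 to 260 (16.3, 9.84 to 28.9). Both passed the UMI limit through the IR library alone, as did Gdf15 (18 UMIs in nonIR and 54 in IR without the shared barcodes). Zfp365 had a ratio of 6.22, Ak1 of 3.18, Gdf15 of 3.01, Aen of 2.91 (2.74 to 3.10), Zmat3 of 2.79, Epha2 of 2.61 and Plk2 of 2.07. Pidd1 (1.94), Phlda3 (1.89), Rps27l (1.80) and Ei24 (1.57) were also past the limit, as were Cd80 (2.15) and Spata18 (1.78) with under 30 UMIs each and intervals that include 1. In Chek2-/- fibroblast-like cells 4 of 33 were at least 1.5-fold higher (4.11% of all genes): Zfp365 (1.98, 1.17 to 3.45), and Inka2 (1.76), Lif (1.55) and Trp53cor1 (1.53), whose intervals include 1, and none was lower (2.74%). Trp53cor1 passed the UMI limit there through the IR library alone (13 UMIs in nonIR and 21 in IR without the shared barcodes).

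**Figure D4:**
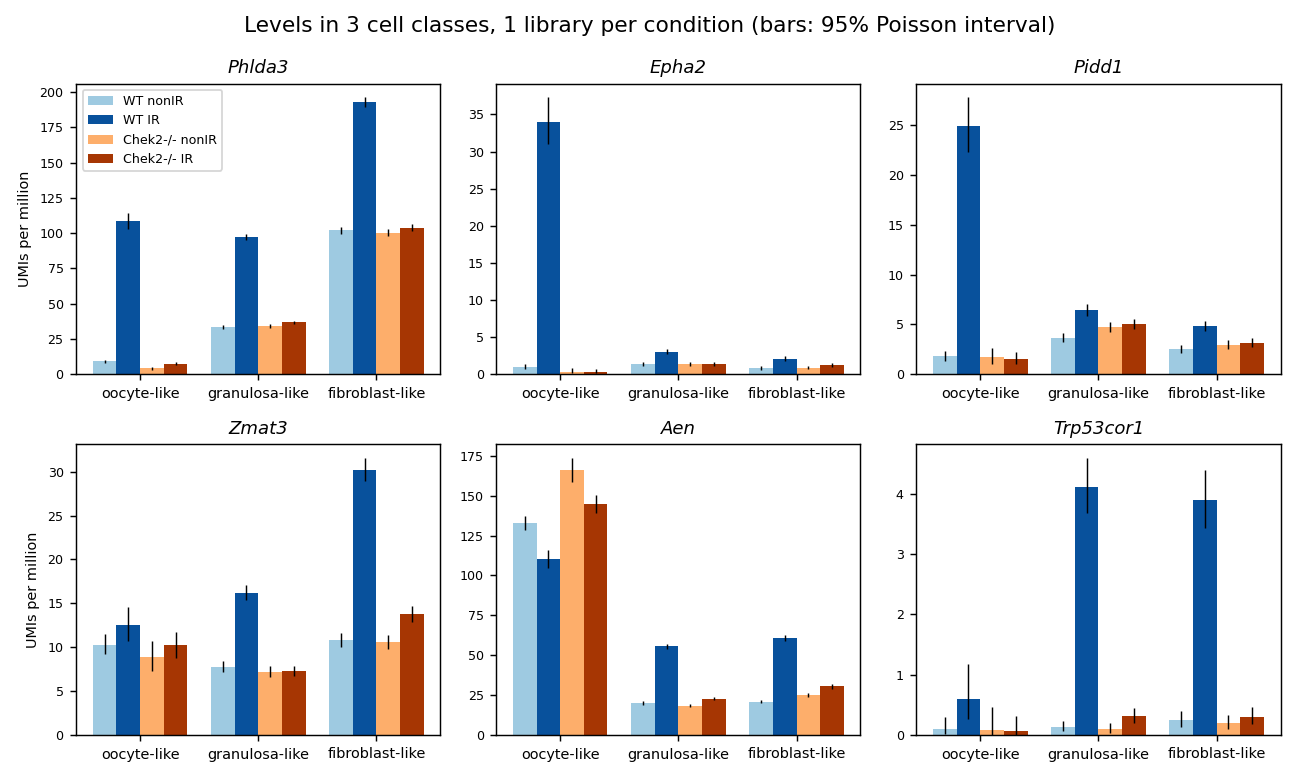
UMI levels in CPM (vertical axis, from 0) of 6 genes in oocyte-, granulosa- and fibroblast-like cells, with a bar for each of the 4 libraries and an exact 95% Poisson interval. The WT IR bar is the tallest in all 3 classes for the genes other than Aen, while for Aen it rises in granulosa- and fibroblast-like cells from 19.9 to 55.6 and from 20.8 to 60.6 and is lower than the WT nonIR bar in oocyte-like cells. There the Chek2-/- IR bar of Aen is also lower than the Chek2-/- nonIR bar.

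The members differed in where their ratios were high. Of the 29 with at least 20 UMIs in all 3 classes, 10 had counting intervals in WT oocyte-like cells wholly above those in granulosa- and fibroblast-like cells: Epha2, Zfp365, Pidd1, Phlda3, Ak1, Ercc5, Fdxr, Triap1, Ninj1 and Ddb2, the last 2 with ratios of 1.34 and 1.17. Of all genes with as many UMIs, 15.3% had this order. Without the shared barcodes there were 11 (14.6% of all genes), with Ddb2 gone and Xpc (1.17) and Plk2 (3.13) added. With and without these barcodes, Zfp365 and Ak1 passed the UMI limit in oocyte-like cells through the IR library alone. The shares of all genes used the same limit. For Ercc5 the ratios in the somatic classes were 1.22 (1.14 to 1.297) in granulosa-like and 1.17 (1.09 to 1.26) in fibroblast-like cells. In 6 the order was the opposite (Aen, Zmat3, Rps27l, Gadd45a, Jmy and Steap3), a share near the 17.8% of all genes, and only Aen, Zmat3 and Rps27l kept it without the shared barcodes (14.6% of all genes). Zmat3 had a ratio of 1.22 (1.00 to 1.48) in WT oocyte-like cells. Trp53cor1 had 3 and 8 UMIs in WT oocyte-like cells, too few for the limit of 20. The granulosa- and fibroblast-like ratios of Aen stand beside its bulk WT log2 change of 0.02. Aen was at 132.9 CPM in WT nonIR oocyte-like cells and at 19.9 and 20.8 in WT nonIR granulosa- and fibroblast-like cells. The ratios of Aen in WT epithelial-, endothelial- and smooth muscle-like cells were 4.11 (3.20 to 5.34), 2.07 (1.61 to 2.67) and 4.59 (3.43 to 6.23). The share of bulk RNA that came from each class was not measured.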

How the data were processed

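Bulk libraries (KAPA mRNA HyperPrep, paired-end) were trimmed with Trim Galore 0.6.5 and quantified with Salmon 1.3.0 by the authors, who deposited estimated counts per gene for 24 libraries; strandedness and filters are not given in the sources used here. Salmon divides reads among similar transcripts. Estimated counts were rounded, genes with at least 10 counts over all libraries were kept, and edgeR 4.0.16 (TMM factors, quasi-likelihood test) was fitted over all 4 groups with contrasts for IR in each genotype, their difference, and genotype without IR. P-values were adjusted by the Benjamini-Hochberg method over all 26790 genes, with a threshold of 0.05. In data simulated for the WT comparison (26395 genes), 82.1% of genes changed by 1 on the log2 scale and 68.7% of those changed by 0.585 were recovered. Changes were placed only in genes with high mean counts, so these shares do not cover members with few counts, such as Trp53cor1 and Spata18. DESeq2 1.42.0 and limma 3.58.1 were alternatives.

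For single cells, the authors deposited filtered UMI counts per barcode from Cell Ranger (mm10). Cells with at least 1000 genes, at most 20% mitochondrial and at most 50% ribosomal UMIs were kept, doublets were removed with Scrublet (389 to 566 per library), and cells were clustered with scanpy 1.11.5 (2000 variable genes, 30 components, Leiden resolution 0.5). A class needed at least 60% of its listed markers. Class names were rebuilt here and may differ from those of the study. A cluster led by mast cell genes was left unnamed by a rule set after the clusters were seen. A further 2 clusters were unnamed because they met under 60% of the markers of every list. UMIs were summed per class and library, and members with at least 20 UMIs over both libraries and a ratio of at least 1.5 were counted. A gene could pass the UMI limit through the library in which it was high, and the same held for the shares of all genes.

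The members, the other gene lists and the markers were chosen with earlier results of these data known. Named genes were those with an adjusted p of at most 0.05 in any bulk contrast, those past the single-cell limits, and at most 5 of each other list. The rule gave the remaining members by range and count, and their log2 changes were added. Replicate numbers were not taken to pair the bulk libraries, since same-numbered libraries did not all correlate above 0.1 (in Chek2-/-, 0.06 to 0.66). Replicates of a group differed by more than sampling noise (chi-square per degree of freedom 5.85 to 55.3). Promoters came from RefSeq (GRCm38.p6).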

Additional observations from a re-analysis of the deposited data

Results flagged for a closer look

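In 9 genes the response to IR differed between WT and Chek2-/- ovaries by the interaction test of the bulk libraries, and in each the WT response was the larger. The log2 differences were 2.53 for Trp53cor1, 1.69 for Ak1, 1.43 for Inka2, 1.09 for Pidd1, 0.85 for Phlda3, 0.78 for Zmat3, 0.64 for Polk, 0.39 for Rps27l and 0.36 for Ei24.

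In 14 of 136 sets of 6 libraries (34 genes in 4 groups) a library stood farther from its neighbour than Dixon's 95% limit for 6 samples, which chance alone gives in about 1 of 20 sets. Of these, 8 involved a library numbered 6 of Chek2-/-. In Chek2-/- nonIR, library 6 was lowest for Xpc (54.0 CPM, others 65.2 to 68.5), Fdxr (25.9 CPM, others 31.4 to 34.5) and Ninj1 (44.5 CPM, others 53.3 to 58.5). It was highest for Dram1 (8.45 CPM, others 3.84 to 5.13) and Ak1 (2.34 CPM, others 1.01 to 1.38). In Chek2-/- IR, library 6 was highest for Dram1 (7.96 CPM), Lif (7.43 CPM) and Epha2 (46.4 CPM). The 2 libraries had oocyte marker sums of 1010 and 1147 CPM and epithelial marker sums of 1019 and 887.6 CPM, and the part of this in the gene values was not tested.

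The other values that stood apart were Lif in WT IR library 6 (7.61 CPM, others 3.89 to 4.80), Zmat3 in Chek2-/- IR library 1 (51.0 CPM, others 40.5 to 44.4) and Trp53cor1 in Chek2-/- nonIR library 4 (0.665 CPM, others 0.0369 to 0.233). Spata18 was highest in Chek2-/- nonIR library 2 (0.272 CPM), while Aen was lowest in Chek2-/- IR library 3 (143 CPM, others 170.4 to 176.6) and Jmy in WT nonIR library 1 (100 CPM, others 119.6 to 130.5).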

How the results depend on the processing

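In all, 219 alternative values of the counts of members lay within 1.5 times the reported count and 37 did not, and among the values of single genes 601 kept their direction and call and 26 kept only the direction; none reversed. Limits are the single library per condition in single cells, the spread of Chek2-/- libraries, and counts under 30 for Spata18, Cd80 and Trp53cor1 in some libraries or classes.

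For members higher in WT IR ovaries, asking for a 2-fold change left 5 (230 of all genes). Leaving out a library at a time gave 12 to 13 (361 to 431 of all genes), with 0 lower throughout (142 to 271). For Chek2-/- IR, DESeq2 gave 1 higher (8 of all genes), and leaving out a library gave 0 to 1 higher (2 to 4) and 0 lower (0). The interaction gave 4 at 2-fold (132 of all genes) and 8 to 13 with a library left out (153 to 227). None was negative (35 of all genes at 2-fold and 55 to 133 with a library left out). Limma called Trp53cor1 no longer different (adjusted p = 0.0595).

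For members higher in Chek2-/- than in WT without IR, DESeq2 gave 5 (1349 of all genes) and library totals 2 (1089). The filterByExpr rule of edgeR gave 2 (1033 of all genes) and a fit on only the groups compared 0 (400). The 2-fold limit gave 0 (160 of all genes) and leaving out a library 0 to 3 (360 to 1085). For members lower there, DESeq2 gave 4 (1158 of all genes), library totals 1 (496) and no filter 1 (469). A fit on only the groups compared gave 1 (385 of all genes), the 2-fold limit 0 (51) and leaving out a library 1 to 4 (213 to 729). The fit on only the groups compared ended the Gdf15 call (adjusted p = 0.104) and the Prkab1 call (adjusted p = 0.0639). The cause of these shifts was not tested.

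Replicate numbers were not taken to pair the libraries, since not every pair passed 0.1: same-numbered libraries correlated by -0.05 to 0.40 in WT and 0.06 to 0.66 in Chek2-/-, and 1 of 6 and 4 of 6 correlated best with their own number. With the replicate block, 13 members were higher in WT (416 of 26790 genes), 0 in Chek2-/- (4 genes) and 13 differed between the genotypes. Of all genes, the WT response was larger in 188 and smaller in 93. Without IR, 5 members were higher and 4 lower in Chek2-/- (1092 and 933 of all genes).

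Alternatives added after the data were seen left out both Chek2-/- libraries numbered 6 (13 higher in WT, 0 in Chek2-/-, 12 in the interaction) or the 3 libraries high in blood cell genes (12, 0 and 9, and without IR 3 higher and 4 lower in Chek2-/-). Without the libraries numbered 6, calls over all 26480 genes were 558 higher in WT, 3 higher in Chek2-/- and 221 positive in the interaction. Without the 3 libraries high in blood cell genes, the same calls were 356, 3 and 164 of all 26362 genes. Without IR, the latter fit called 879 higher and 608 lower of all 26362 genes.

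In single cells a minimum of 50 UMIs gave 1 member higher in Chek2-/- fibroblast-like cells. A fold limit of 2 gave 1 in Chek2-/- oocyte-like, 9 in WT granulosa-like, 1 in Chek2-/- granulosa-like and 0 in Chek2-/- fibroblast-like cells. Leaving out cells whose barcode another library shared, also added after the data were seen, gave 12 in WT oocyte-like cells and moved none of the other 5 counts, although in Chek2-/- granulosa-like cells Spata18 took the place of Zfp365. The shares of all genes under these changed single-cell settings are not given here, so these counts have no background beside them.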
